A study of Mus musculus with 45 samples.

Results

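Pancreatic islets of 2 inbred mouse strains were compared on the control diet: CAST/EiJ, a strain derived from wild mice of the castaneus subspecies, and C57BL/6J, a common laboratory strain. The members were all samples of these strains whose labels give the diet as 10% fat+fiber. This made 15 of the 45 samples in the series: 4 females and 4 males of C57BL/6J, and 4 females and 3 males of CAST/EiJ. All animals are labelled wild type with no treatment, so strain and sex alone separate the groups. The diet began at 6 weeks of age and tissue was taken at 15 weeks. Both sexes were kept as a factor, and the strain difference is the mean of the female and the male difference. The other 30 samples were the same strains on a diet labelled 44% fat+fiber, and NZO/HlLtJ mice on both diets. Poly(A) RNA was sequenced, and the libraries compared here held 57203768 to 101988989 gene counts.

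Islets are clusters of endocrine cells within the exocrine pancreas. Beta cells release insulin, alpha cells glucagon, delta cells somatostatin, and PP cells pancreatic polypeptide. In beta cells glucose enters through a transporter and is metabolised. The ATP it yields closes potassium channels, and calcium entry then releases granules in which insulin is stored with granins. Incretin and fatty acid receptors raise this release.

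The endocrine markers matched the labelled tissue. Ins1 and Ins2 together took 4.97 to 11.4% of all counts in C57BL/6J libraries and 4.10 to 15.1% in CAST/EiJ libraries. Xist and Ddx3y matched the labelled sex in all 15 libraries. The libraries differed widely in RNA of acinar cells, the enzyme-secreting cells around the islets. A list of 30 acinar genes took 2.11 to 26.6% of counts in the 8 C57BL/6J libraries and 0.0755 to 44.4% in the 7 CAST/EiJ ones. The highest share was in CAST/EiJ female 4 and the lowest in CAST/EiJ male 1, so the strains overlapped throughout. CAST/EiJ male 3 stood apart in immune markers, given in CPM (counts scaled to a common library size and composition). Its 16 lymphocyte genes summed to 85.8 CPM and its 18 macrophage genes to 346.6 CPM. The other CAST/EiJ libraries reached at most 12.9 and 82.4 CPM. The counts below were also computed with each of these libraries left out. In bulk RNA, fewer cells of a type and less RNA per cell cannot be told apart. The sources used here do not say whether reads were assigned with the CAST/EiJ genome sequence, so a difference in RNA level and one in how reads of CAST/EiJ alleles were assigned cannot be told apart either.

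Differences between the strains reached into every level of expression. Of 18906 genes tested, 9163 (48.5%) passed an adjusted p of 0.05 in edgeR's quasi-likelihood test with Benjamini-Hochberg adjustment, the threshold for a call throughout: 4359 (23.1%) were higher and 4804 (25.4%) lower in CAST/EiJ. A difference of at least 2-fold was estimated for 3372 of the called genes (17.8% of those tested), 1444 higher (7.64%) and 1928 lower (10.2%). In 3931 genes (20.8%) the 2 strains' libraries did not overlap at all, with every CAST/EiJ library above every C57BL/6J library in 1857 (9.82%) and below in 2074 (11%). The median log2 fold change over all tested genes was -0.01. The gene lists below were not tested as sets, and each count of rises and falls stands beside these 23.1% and 25.4%. Tested against a change of 1.5-fold rather than 0, 3302 genes passed. Without genes of a mean log2 CPM under 1, 3164 lower calls and 1251 calls of 2-fold or more were left, since the filter removes genes that can be called.

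**Figure D1:**
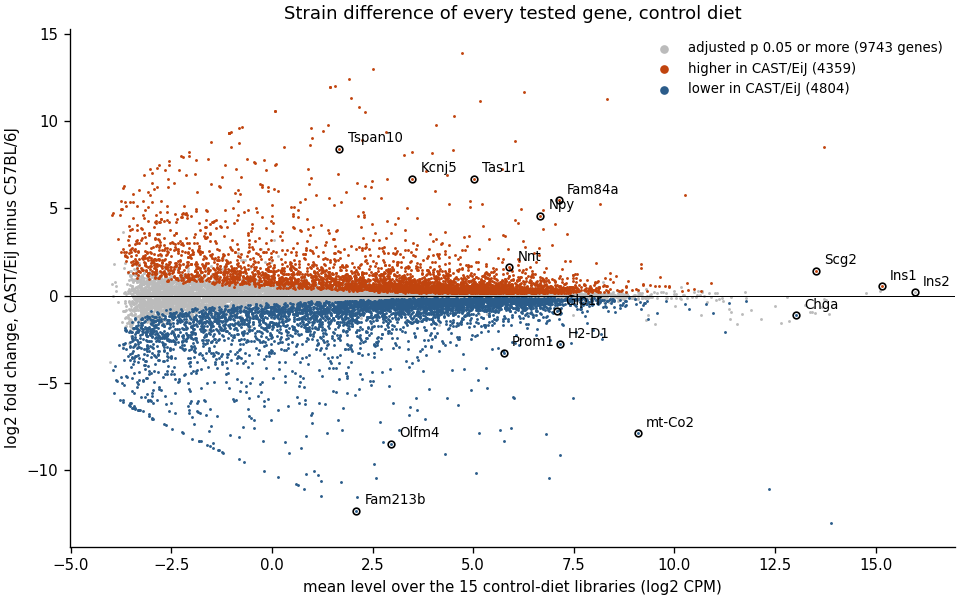
Each point is 1 of the 18906 tested genes, with its mean log2 CPM over the 15 control-diet libraries on the x axis and its log2 fold change (CAST/EiJ minus C57BL/6J) on the y axis; orange and blue points passed an adjusted p of 0.05 and grey points did not. Differences lie on both sides of 0 at every level, and Ins1 and Ins2 sit close to 0 at the right edge.

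The genes with the largest gains and losses are named here among protein-coding genes whose log2 CPM averaged 1 or more, leaving out predicted genes, without overlap and sharing under 50% of their 31-base words with other annotated genes. Among the largest gains in CAST/EiJ were receptors and a channel that were close to silent in C57BL/6J. Tas1r1, a subunit of the umami taste receptor (chromosome 4, 152027914 to 152038568, GRCm38), had 0.420 to 1.10 CPM (median 0.591) in the C57BL/6J libraries and 24.4 to 109.96 CPM (median 75.7) in the CAST/EiJ libraries. No library of one strain came near the other (log2 fold change 6.72 ± 0.33 (SE), adjusted p = 1.65e-09). Kcnj5, a subunit of G protein-gated inward rectifier potassium channels, had 0.103 to 0.538 CPM (median 0.231) in the C57BL/6J libraries and 14 to 38.3 CPM (median 23) in the CAST/EiJ libraries. The gap was as clear (log2 fold change 6.70 ± 0.16 (SE), adjusted p = 1.92e-12). Nmbr, the neuromedin B receptor, had 0.0590 to 0.187 CPM (median 0.133) in the C57BL/6J libraries and 5.6 to 18.3 CPM (median 12.7) in the CAST/EiJ libraries, again without overlap (log2 fold change 6.60 ± 0.21 (SE), adjusted p = 2.09e-11). Magel2, an imprinted gene of the Prader-Willi region, had 0.0350 to 0.192 CPM (median 0.133) in the C57BL/6J libraries and 4.01 to 10.1 CPM (median 9.07) in the CAST/EiJ libraries. Its log2 fold change was 5.95, without overlap. Tspan10, Ccdc190, St6gal2, Klhl30 and Fam84a are the other non-exocrine genes among the 10 largest gains under these limits, with log2 fold changes of 8.41, 6.99, 5.79, 5.58 and 5.47. Ccdc190 shares 32.7% of its words. Fam84a was the most abundant of these 5, and had 5.06 to 9.51 CPM (median 6.39) in the C57BL/6J libraries and 137.8 to 464.2 CPM (median 307.4) in the CAST/EiJ libraries, without overlap.

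Among genes with a mean of at least 100 CPM, Npy rose with Fam84a. Npy encodes neuropeptide Y, a peptide known to restrain insulin release, and had 5.58 to 12.6 CPM (median 7.90) in the C57BL/6J libraries and 106.6 to 330.8 CPM (median 213.0) in the CAST/EiJ libraries. The lowest CAST/EiJ library was far above the highest C57BL/6J library (log2 fold change 4.58 ± 0.23 (SE), adjusted p = 1.69e-09). The ribosomal protein genes Rpl17 and Rpl9 also rose, by 4.92 and 4.09 on the log2 scale. Both have many near-identical pseudogenes, and 46.1% and 19.9% of their 31-base words occur in other annotated genes, so their values are uncertain.

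Several of the largest losses under the same limits reached the detection limit in CAST/EiJ. Fam213b, which encodes a prostamide and prostaglandin F synthase (chromosome 4, 154895504 to 154899135, GRCm38), had 6.30 to 9.19 CPM in C57BL/6J and no count in any of the 7 CAST/EiJ libraries. Against a floor of 3 counts over the CAST/EiJ group, it was at least 1522-fold lower. Iigp1, an interferon-inducible GTPase, had 2.17 to 7.08 CPM in C57BL/6J and 2 counts over all CAST/EiJ libraries. Olfm4, a secreted glycoprotein, had 10.5 to 19.4 CPM (median 14.1) in the C57BL/6J libraries and 0 to 0.0911 CPM (median 0.0226) in the CAST/EiJ libraries (log2 fold change -8.54 ± 0.36 (SE), adjusted p = 3.43e-10). Crb1, a cell polarity protein, Lefty1, an inhibitor of Nodal signalling, Rec8, a meiotic cohesin subunit, and Folr1, a folate receptor, fell by 7.26, 7.18, 6.89 and 6.60 on the log2 scale, each with every CAST/EiJ library below every C57BL/6J library. Naip2, an inflammasome sensor with close paralogs, fell by 6.26, to 0.305 to 2.14 CPM in CAST/EiJ, and Erdr1 by 7.10. Naip2, Erdr1 and Lefty1 share 32.8%, 46.8% and 25.7% of their words. Hamp2, a hepcidin gene that shares 34.5%, was also lost but varied among C57BL/6J libraries, from 0.479 to 16.5 CPM, against at most 0.0109 CPM in CAST/EiJ.

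Of the genes with a mean of at least 100 CPM under the same limits, which leave out mt-Co2 and Amy2a3, the largest falls were in 2 classical class I histocompatibility genes, H2-D1 and H2-K1, which share 26.9% and 22.8% of their words and are described with their pathway, and in Sez6l, Ppm1l and Nell1. Sez6l, a membrane protein of neuroendocrine cells, had 378.3 to 507.9 CPM (median 475.4) in the C57BL/6J libraries and 75.9 to 129.7 CPM (median 99.9) in the CAST/EiJ libraries (log2 fold change -2.22 ± 0.07 (SE), adjusted p = 1.33e-11). Ppm1l, a protein phosphatase, and Nell1, a secreted protein, fell by 1.71 and 1.66 on the log2 scale. As the limits required, the strains did not overlap in any of these 3 genes.

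Insulin itself differed little beside these changes. Ins2 had 46160.0 to 70321 CPM (median 62617) in the C57BL/6J libraries and 51581 to 88233 CPM (median 73839.7) in the CAST/EiJ libraries, with overlap and no call (log2 fold change 0.19 ± 0.21 (SE), adjusted p = 0.49). Ins1 had 23736 to 35054 CPM (median 31351) in the C57BL/6J libraries and 32596 to 54028 CPM (median 47699) in the CAST/EiJ libraries. The libraries overlapped, and the call was marginal (log2 fold change 0.52 ± 0.19 (SE), adjusted p = 0.0365): it was lost without any 1 of 6 libraries (C57BL/6J females 1 and 4 and male 1, CAST/EiJ males 1 and 2 and female 3), with adjusted p up to 0.0707, and without the term for runs of sample numbers (adjusted p = 0.0801). Iapp, the amyloid peptide released with insulin, was not called (log2 fold change -0.20, adjusted p = 0.275), though it passed as lower with DESeq2 (adjusted p = 0.0154) and with the acinar level as a covariate (adjusted p = 0.0336).

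Several transcription factors that maintain mature beta cells rose, while the incretin receptor for GLP-1 fell. Of 30 genes for beta cell hormones and identity, 12 rose and 4 fell, beside 23.1% and 25.4% of all genes, and their median log2 fold change was 0.00. With the acinar level as a covariate, 7 fell. Mafa, an activator of insulin transcription, had 40.3 to 79.9 CPM (median 52.2) in the C57BL/6J libraries and 66.7 to 134.2 CPM (median 107.1) in the CAST/EiJ libraries. Its strains overlapped slightly (log2 fold change 0.85 ± 0.13 (SE), adjusted p = 0.000116). Pdx1 and Nkx6-1, regulators of beta cell identity, rose by 0.60 and 0.37 on the log2 scale. Slc2a2, the GLUT2 glucose transporter, and Ucn3, a peptide of mature beta cells, rose by 0.49 and 0.29. Ucn3 was not called when all 45 samples were fitted together (adjusted p = 0.0683). These values are means of the sexes. Ucn3 differed by 0.54 in females and 0.04 in males, and Nkx6-1 by 0.58 and 0.16. Mafa, Pdx1 and Slc2a2 differed by 1.11, 0.80 and 0.62 in females and by 0.59, 0.40 and 0.36 in males. The strain by sex interaction was not called for any of these genes. Trpm5, a cation channel that supports glucose-stimulated depolarisation, had 94.0 to 182.8 CPM (median 134.0) in the C57BL/6J libraries and 198.9 to 333.2 CPM (median 268.8) in the CAST/EiJ libraries. No library overlapped (log2 fold change 0.99 ± 0.11 (SE), adjusted p = 4.4e-06). Ffar1, the receptor for long-chain fatty acids, rose by 0.75, also without overlap. Gipr, the receptor for the incretin GIP, rose by 0.40. Glp1r went the other way: it had 131.2 to 221.3 CPM (median 177.6) in the C57BL/6J libraries and 76.7 to 121.7 CPM (median 89.2) in the CAST/EiJ libraries. Every CAST/EiJ library was below every C57BL/6J library (log2 fold change -0.91 ± 0.10 (SE), adjusted p = 2.95e-06). G6pc2, a glucose-6-phosphatase subunit of islets, had a log2 fold change of -0.47 (adjusted p = 0.0257), and its call was lost without any 1 of 8 libraries (C57BL/6J female 1, female 3, male 1, male 3 or male 4; CAST/EiJ female 1, male 1 or male 3), with adjusted p up to 0.0951.

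**Figure D2:**
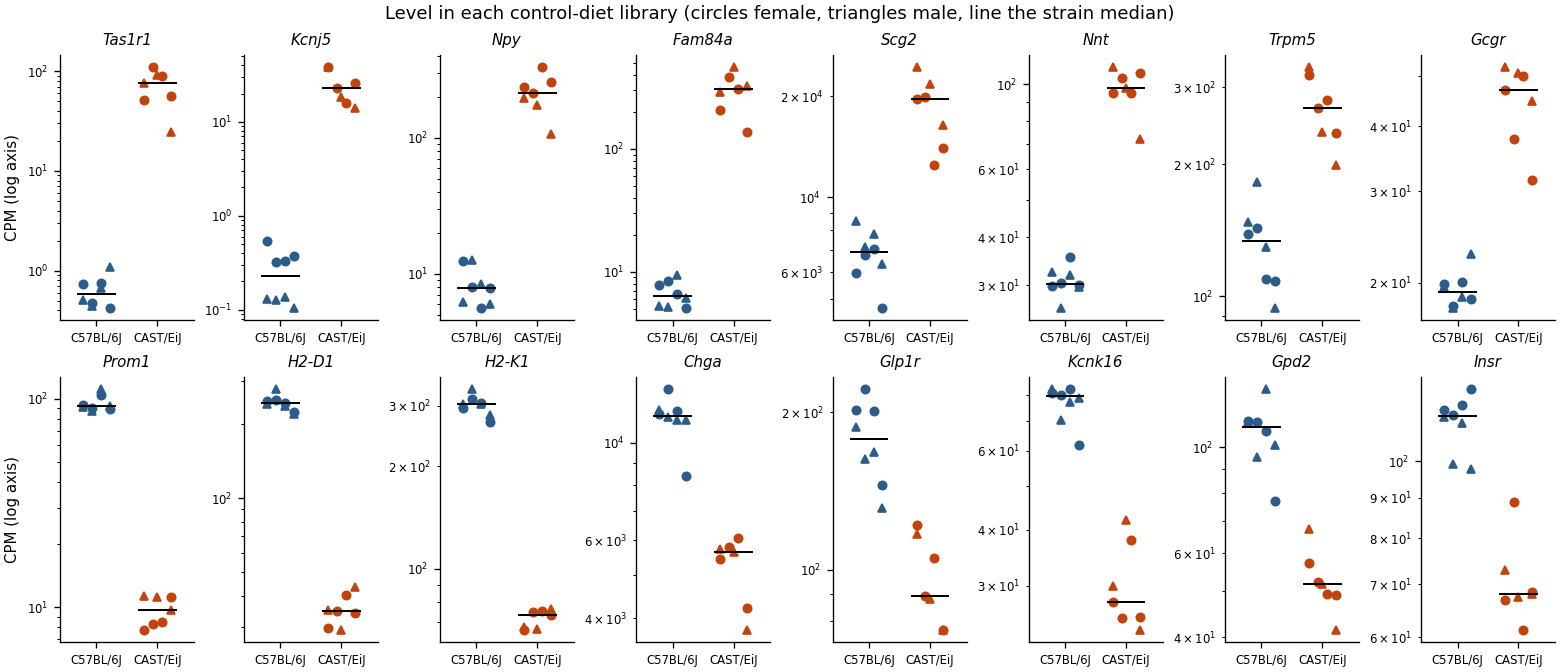
Points are single control-diet libraries (8 of C57BL/6J and 7 of CAST/EiJ; circles female, triangles male) with their level in CPM on a log axis, and black lines are strain medians, for 16 genes. The upper row holds genes that rose in CAST/EiJ and the lower row genes that fell. All 16 were picked from the 20.8% of tested genes in which the strains did not overlap.

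Of 25 genes for glucose sensing and excitability, which couple glucose to calcium entry, 5 rose and 6 fell, beside 23.1% and 25.4% of all genes (median log2 fold change -0.10). These shares are near those of all genes. The subunits of the ATP-sensitive channel hardly differed: Abcc8 was not called (adjusted p = 0.205), and Kcnj11 had a log2 fold change of -0.18 (adjusted p = 0.0161), a call lost without any 1 of 7 libraries (C57BL/6J females 1, 2 and 4 and males 1 and 2, CAST/EiJ males 1 and 2; adjusted p up to 0.078) or without the term for runs of sample numbers (adjusted p = 0.0685). Kcnk16, the TALK-1 potassium leak channel that limits beta cell calcium entry, had 61.6 to 82.3 CPM (median 79.2) in the C57BL/6J libraries and 23.9 to 42.0 CPM (median 27.6) in the CAST/EiJ libraries. Its strains did not overlap (log2 fold change -1.35 ± 0.13 (SE), adjusted p = 1.01e-06). Gpd2, the mitochondrial glycerol phosphate shuttle enzyme, had 77.0 to 132.3 CPM (median 110.3) in the C57BL/6J libraries and 41.3 to 67.3 CPM (median 51.7) in the CAST/EiJ libraries, again without overlap (log2 fold change -1.05 ± 0.10 (SE), adjusted p = 1.35e-06). The calcium channel subunits Cacna1a and Cacna1c and the BK channel subunit Kcnmb2 rose by 0.73, 0.58 and 0.61, each with every CAST/EiJ library above every C57BL/6J library.

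Granule proteins split into opposite groups. Of 23 genes for granule maturation and exocytosis, 9 rose and 8 fell, beside 23.1% and 25.4% of all genes, and the median log2 fold change was -0.04. Chga, chromogranin A, had 8408 to 13233 CPM (median 11524) in the C57BL/6J libraries and 3754 to 6091 CPM (median 5650.0) in the CAST/EiJ libraries. It was lower in all 7 CAST/EiJ libraries than in any C57BL/6J library (log2 fold change -1.14 ± 0.15 (SE), adjusted p = 3.19e-05). Chgb, chromogranin B, and Pam, the peptide-amidating enzyme, fell by 0.79 and 0.77 on the log2 scale, without overlap. Scg2, secretogranin II, moved in the opposite direction: it had 4684 to 8509.7 CPM (median 6868) in the C57BL/6J libraries and 12492 to 24397 CPM (median 19595) in the CAST/EiJ libraries. The ranges were far apart (log2 fold change 1.43 ± 0.15 (SE), adjusted p = 3.53e-06). Vgf, a granin-like neuropeptide precursor, and Scg5, the chaperone of the convertase PC2, rose by 1.73 and 1.08, without overlap.

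Among genes listed for other endocrine cells, those of the glucagon receptor and the ghrelin receptor differed in opposite directions. Of 18 genes listed for alpha, delta, PP and epsilon cells, 4 rose and 7 fell, beside 23.1% and 25.4% of all genes (median log2 fold change -0.15). Without CAST/EiJ male 2, 2 of the rises passed. Gcg, glucagon, was not called and had 20133 to 32026 CPM (median 27114) in the C57BL/6J libraries and 17539.8 to 43336 CPM (median 33359.9) in the CAST/EiJ libraries. Sst, somatostatin, and Ppy, pancreatic polypeptide, had log2 fold changes of -0.41 (adjusted p = 0.0341) and -0.99 (adjusted p = 0.0379). Each of these calls was lost without any 1 of 10 of the 15 libraries. For Sst these were C57BL/6J females 1, 2 and 4 and males 2 and 4, and CAST/EiJ females 2 and 4 and males 1, 2 and 3 (adjusted p up to 0.0963). For Ppy they were C57BL/6J females 1, 2 and 4 and males 1, 2 and 3, and CAST/EiJ females 1 and 4 and males 2 and 3 (adjusted p up to 0.0997). Gcgr, the glucagon receptor, which beta cells also express, had 17.9 to 22.7 CPM (median 19.2) in the C57BL/6J libraries and 31.5 to 51.9 CPM (median 46.9) in the CAST/EiJ libraries. The strains did not overlap (log2 fold change 1.18 ± 0.09 (SE), adjusted p = 1.81e-07). Ghrl, ghrelin, rose by 1.62, with overlap. Ghsr, the ghrelin receptor and a delta cell gene, fell by 1.37, without overlap.

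Among 18 genes of insulin and growth signalling, 3 rose and 7 fell, beside 23.1% and 25.4% of all genes (median log2 fold change -0.05), and 5 rose with the acinar level as a covariate. Insr, the insulin receptor, had 97.7 to 123.4 CPM (median 114.0) in the C57BL/6J libraries and 61.2 to 88.8 CPM (median 68.0) in the CAST/EiJ libraries. The strains did not overlap (log2 fold change -0.69 ± 0.07 (SE), adjusted p = 4.49e-06). Downstream of the receptor, the docking protein Irs1 and the kinase Akt1 rose by 0.79 and 0.52, without overlap; Irs1 shares 30.7% of its words.

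In the integrated stress response, which slows translation and induces amino acid genes, 9 of 20 genes fell and 0 rose, beside 25.4% lower and 23.1% higher of all genes (median log2 fold change -0.42). The rises numbered 2 without CAST/EiJ female 2, and 1 with DESeq2 or without C57BL/6J male 1, female 2 or female 4, or CAST/EiJ female 1 or male 1. Chac1, a glutathione-degrading target of this pathway, had 24.3 to 56.1 CPM (median 38.3) in the C57BL/6J libraries and 4.89 to 29.8 CPM (median 12.1) in the CAST/EiJ libraries. The highest CAST/EiJ level lay within the C57BL/6J range (log2 fold change -1.66 ± 0.21 (SE), adjusted p = 1.84e-05). Nupr1, a stress-induced gene also abundant in exocrine cells, had 49.5 to 526.7 CPM (median 96.9) in the C57BL/6J libraries and 1.87 to 438.6 CPM (median 16.1) in the CAST/EiJ libraries. Its highest CAST/EiJ level was in female 4, the library with the most acinar RNA (log2 fold change -2.55 ± 0.66 (SE), adjusted p = 0.00593). With the acinar level as a covariate, 9 of the 20 genes again fell. As each library was left out, the falls ranged from 7 (without CAST/EiJ female 2) to 12 (without CAST/EiJ female 4). They numbered 5 when tested against a 1.5-fold change and 11 with all 45 samples in the fit. Of 21 genes of the unfolded protein response, 1 rose and 2 fell, beside 23.1% and 25.4% of all genes. Without CAST/EiJ female 4, 5 fell; the rises were 0 without CAST/EiJ male 1 or male 2, and 2 without C57BL/6J female 3, C57BL/6J male 4 or CAST/EiJ male 3, or with all 45 samples in the fit. Ern1, the IRE1 sensor, fell by 0.78 without overlap, and Herpud1, an adaptor of protein degradation, by 0.80 with overlap.

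Redox and mitochondrial genes included known strain variants. C57BL/6J carries a deletion within Nnt, the mitochondrial transhydrogenase that makes NADPH. Nnt (chromosome 13, 119335448 to 119408997, GRCm38) had 26.2 to 35.6 CPM (median 30.2) in the C57BL/6J libraries and 71.9 to 110.7 CPM (median 97.8) in the CAST/EiJ libraries. Every C57BL/6J library was lower (log2 fold change 1.62 ± 0.09 (SE), adjusted p = 4.18e-09). Nnt shares 47.8% of its words with other genes, so its value is uncertain. Nqo1, a quinone reductase induced by NRF2, rose by 1.70, without overlap. Gstm7, from a separate list of glutathione transferases, rose by 2.61, without overlap. Of the 19 genes tested on that separate list, 5 rose and 7 fell, beside 23.1% and 25.4% of all genes. Gstm5 was among its falls, by 1.04 and without overlap. Txnip, an inhibitor of thioredoxin induced by glucose, fell by 0.64. In all, 9 of 26 antioxidant genes rose and 5 fell, beside 23.1% and 25.4% of all genes. Cox7a2l, a respiratory supercomplex factor of which C57BL/6J carries a short form, had 147.3 to 215.1 CPM (median 182.3) in the C57BL/6J libraries and 97.9 to 130.2 CPM (median 114.4) in the CAST/EiJ libraries, without overlap (log2 fold change -0.72 ± 0.07 (SE), adjusted p = 7.74e-07). Of 34 nuclear genes of oxidative phosphorylation, 12 rose and 4 fell, beside 23.1% and 25.4% of all genes, with a median log2 fold change of 0.13 and no gain above 0.50; leaving out 1 library moved the rises between 10 and 18.

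In the mitochondrial genome, 2 of 13 protein genes rose and 2 fell, beside 23.1% and 25.4% of all genes. The rises numbered 5 with DESeq2, and 4 without CAST/EiJ female 1 or female 4, with the acinar level as a covariate, with the acinar list removed before scaling or with all 45 samples in the fit. The values of mt-Co2 were extreme: it had 801.9 to 1401 CPM (median 1027) in the C57BL/6J libraries and 2.68 to 8 CPM (median 4.59) in the CAST/EiJ libraries. All of the 31-base words of mt-Co2 occur in other annotated genes, so this value is uncertain. The same holds for mt-Nd3, which fell by 1.14 and shares 98.1% of its words. By contrast mt-Nd2, of which 13.5% is shared, rose by 0.74, without overlap.

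Some enzymes that lengthen and desaturate fatty acids rose. Scd2, a stearoyl-CoA desaturase, had 185.9 to 239.5 CPM (median 203.0) in the C57BL/6J libraries and 372.7 to 725.6 CPM (median 485.1) in the CAST/EiJ libraries, and the strains did not overlap (log2 fold change 1.28 ± 0.10 (SE), adjusted p = 2.69e-07). Fads2, the delta-6 desaturase, and Elovl6, a fatty acid elongase, rose by 1.25 and 0.90, without overlap. Over the 25 genes of fatty acid and cholesterol synthesis, 7 rose and 6 fell, beside 23.1% and 25.4% of all genes. Eno2, the neuronal enolase, had the largest gain among 18 glycolysis genes, of which 6 rose and 5 fell (3 fell without C57BL/6J female 1, female 3, male 1 or male 3, or CAST/EiJ female 1, and 8 with all 45 samples in the fit): it had 36.0 to 48.1 CPM (median 45.2) in the C57BL/6J libraries and 110.1 to 147.7 CPM (median 140.1) in the CAST/EiJ libraries (log2 fold change 1.61 ± 0.06 (SE), adjusted p = 6.65e-11).

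Interferon-stimulated genes were lower in CAST/EiJ. These genes are induced by type I and II interferons and encode antiviral effectors and sensors. Of 37 tested, 27 fell and 4 rose, beside 25.4% and 23.1% of all genes, and the median log2 fold change was -0.95 against -0.01. Their summed level was 204.1 to 250.3 CPM in CAST/EiJ and 272.0 to 374.9 CPM in C57BL/6J, so the strains did not overlap. The 7 NZO/HlLtJ control libraries lay at 365.5 to 879.9 CPM. Leaving out 1 library kept the number of falls between 26 and 28. Ifi44 had 1.64 to 5.20 CPM (median 2.45) in the C57BL/6J libraries and 0.0425 to 0.190 CPM (median 0.142) in the CAST/EiJ libraries (log2 fold change -4.46 ± 0.36 (SE), adjusted p = 2.22e-07). Ifih1, the RNA sensor MDA5, had 21.9 to 34.4 CPM (median 26.5) in the C57BL/6J libraries and 4.34 to 6.97 CPM (median 5.43) in the CAST/EiJ libraries, without overlap (log2 fold change -2.37 ± 0.09 (SE), adjusted p = 1.55e-10). Rsad2, the antiviral enzyme viperin, and Irgm1, an immunity-related GTPase, fell by 1.77 and 1.54, without overlap. Oas1a fell by 2.88, but 68.8% of its words occur in related genes. The 4 genes that rose include Usp18, which restrains interferon signalling: it had 9.01 to 17.0 CPM (median 13.3) in the C57BL/6J libraries and 31.8 to 53.5 CPM (median 37.5) in the CAST/EiJ libraries (log2 fold change 1.54 ± 0.13 (SE), adjusted p = 3.61e-07). Mx2 rose by 1.81. Mx1, whose product is defective in many laboratory strains, reached at most 1.12 CPM and had a log2 fold change of 1.00 (adjusted p = 0.0191), a call lost without CAST/EiJ female 2 (adjusted p = 0.0503) or male 3 (adjusted p = 0.0694).

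Interferon-activated factors bind a known sequence in the promoters of their targets. The window from 250 bases before to 50 after the start was read from RefSeq (GRCm38.p6) for 27 of the 37 genes, and searched on both strands for GAAA, any 2 bases and GAAA, the core of the interferon-stimulated response element. Of 32 windows, 20 (62.5%) held it, beside 3.44% of 32851 windows of all genes and 3 of 20 windows (15%) of the antigen presentation genes described next. Below are 80 bases upstream of a RefSeq start for 3 genes of the list that fell by at least 2-fold. They were chosen because a match lies upstream of that start. Genes with larger falls, such as Iigp1, Ifi44 and Ifih1, are not shown. Each match is in capitals. Where it lies on the other strand it reads as TTTC, any 2 bases and TTTC.
Rsad2, chr12:26456543-26456622, minus strand: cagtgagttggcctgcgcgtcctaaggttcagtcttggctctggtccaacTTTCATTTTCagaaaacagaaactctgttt
Oas3, chr5:120777705-120777784, minus strand: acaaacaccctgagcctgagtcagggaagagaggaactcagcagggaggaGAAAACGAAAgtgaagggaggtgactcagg
Irgm1, chr11:48871421-48871500, minus strand: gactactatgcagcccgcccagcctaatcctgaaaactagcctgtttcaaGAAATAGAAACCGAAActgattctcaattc
The Irgm1 window holds 2 overlapping matches. Its printed bases are upstream of a RefSeq start that lies inside the GENCODE gene (chromosome 11, 48861968 to 48871683). Oas3 was near the detection limit and fell by 1.72 on the log2 scale (adjusted p = 0.00101). A match is a description of the reference sequence, which is that of C57BL/6J, and bears on no site of CAST/EiJ.

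Genes of antigen presentation fell with them. Class I molecules present peptides on all nucleated cells, and class II molecules mainly on immune cells. Of 23 tested, 16 fell and 1 rose, beside 25.4% and 23.1% of all genes (median log2 fold change -0.82), and the summed level was 479.1 to 690.5 CPM in CAST/EiJ and 1063 to 1321 CPM in C57BL/6J. H2-K1 (chromosome 17, 33996017 to 34000347, GRCm38) had 269.8 to 336.3 CPM (median 303.2) in the C57BL/6J libraries and 66.2 to 76.2 CPM (median 73.2) in the CAST/EiJ libraries (log2 fold change -2.10 ± 0.06 (SE), adjusted p = 1.14e-11). H2-D1 had 219.8 to 277.7 CPM (median 242.6) in the C57BL/6J libraries and 29.1 to 43.4 CPM (median 34.7) in the CAST/EiJ libraries (log2 fold change -2.81 ± 0.10 (SE), adjusted p = 5.35e-11). H2-T22, a nonclassical class I gene that shares 67.4% of its words, fell by 2.85. The 1 gene of the list that rose was H2-DMb1, by 0.60, with overlap and with 31.4% of its words shared. The strains carry different histocompatibility haplotypes at these highly variable loci, and the part of read assignment was not tested. H2-Ea-ps, the class II E alpha gene that C57BL/6J does not express because of a promoter deletion, was picked outside the naming rule. It had 0 to 0.0560 CPM (median 0) in the C57BL/6J libraries and 7.98 to 13.5 CPM (median 9.25) in the CAST/EiJ libraries, with 5 counts over all 8 C57BL/6J libraries. Marker sums of macrophages overlapped between the strains, at 60.4 to 346.6 CPM in CAST/EiJ and 68.4 to 115.9 CPM in C57BL/6J. The part of macrophages in the levels of class II genes was not tested.

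Mitotic genes were higher in CAST/EiJ, at low levels. Of 31 cell cycle genes, 24 rose and 3 fell, beside 23.1% and 25.4% of all genes, and the median log2 fold change was 0.96. The rises numbered 23 or 24 without any 1 library, and 12 where genes under a mean log2 CPM of 1 were left out. Mki67, a marker of dividing cells, had 4.02 to 8.89 CPM (median 6.69) in the C57BL/6J libraries and 10.4 to 22.8 CPM (median 14.5) in the CAST/EiJ libraries (log2 fold change 1.23 ± 0.18 (SE), adjusted p = 5.96e-05). Top2a, which untangles DNA in mitosis, had 2.89 to 6.07 CPM (median 3.71) in the C57BL/6J libraries and 5.06 to 15 CPM (median 7.89) in the CAST/EiJ libraries (log2 fold change 1.16 ± 0.15 (SE), adjusted p = 2.14e-05). Bub1, a spindle checkpoint kinase, had 0.199 to 0.448 CPM (median 0.307) in the C57BL/6J libraries and 0.569 to 1.54 CPM (median 0.972) in the CAST/EiJ libraries (log2 fold change 1.54 ± 0.21 (SE), adjusted p = 3.56e-05). Aurkb and Plk1, mitotic kinases, rose by 1.51 and 1.49, while Aurka, also a mitotic kinase, fell by 0.44, with overlap. Among the 3 that fell, Ccnd1, cyclin D1 of the G1 phase, had 84.9 to 182.1 CPM (median 143.1) in the C57BL/6J libraries and 56.5 to 89.6 CPM (median 63.7) in the CAST/EiJ libraries (log2 fold change -1.05 ± 0.15 (SE), adjusted p = 4.87e-05). Ccnd2, cyclin D2, alone had a mean log2 CPM of 10.21 over all libraries and was not called. The list's summed level overlapped between strains, at 1189 to 1757 CPM in CAST/EiJ and 1146 to 1710 CPM in C57BL/6J. Which cells divided cannot be read from bulk RNA.

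The CCAAT box, to which the factor NF-Y binds, is common in promoters of mitotic genes. It was found on either strand in 19 of 24 windows of this list (79.2%) and in 37.4% of all windows. It was also in 17 of 20 windows (85%) of the antigen presentation list, most of which fell, and in 12 of 32 windows of the interferon list (37.5%). Of the genes that rose at least 2-fold, 3 are shown, chosen because the box lies upstream of their start. Aurkb, which rose more than Plk1 and Ccnb2, is not shown. The box (CCAAT, or ATTGG on the other strand) is in capitals.
Bub1, chr2:127831877-127831956, minus strand: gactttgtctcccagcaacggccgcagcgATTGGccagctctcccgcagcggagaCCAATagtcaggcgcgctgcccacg
Plk1, chr7:122159355-122159434, plus strand: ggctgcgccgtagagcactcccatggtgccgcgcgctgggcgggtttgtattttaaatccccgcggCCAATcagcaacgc
Ccnb2, chr9:70421555-70421634, minus strand: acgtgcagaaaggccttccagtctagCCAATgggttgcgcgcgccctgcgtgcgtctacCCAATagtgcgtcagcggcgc
Ccnb2, a mitotic cyclin, rose by 1.47 on the log2 scale. In Bub1 and Ccnb2 the printed stretch holds 2 boxes, and in Plk1 1.

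**Figure D3:**
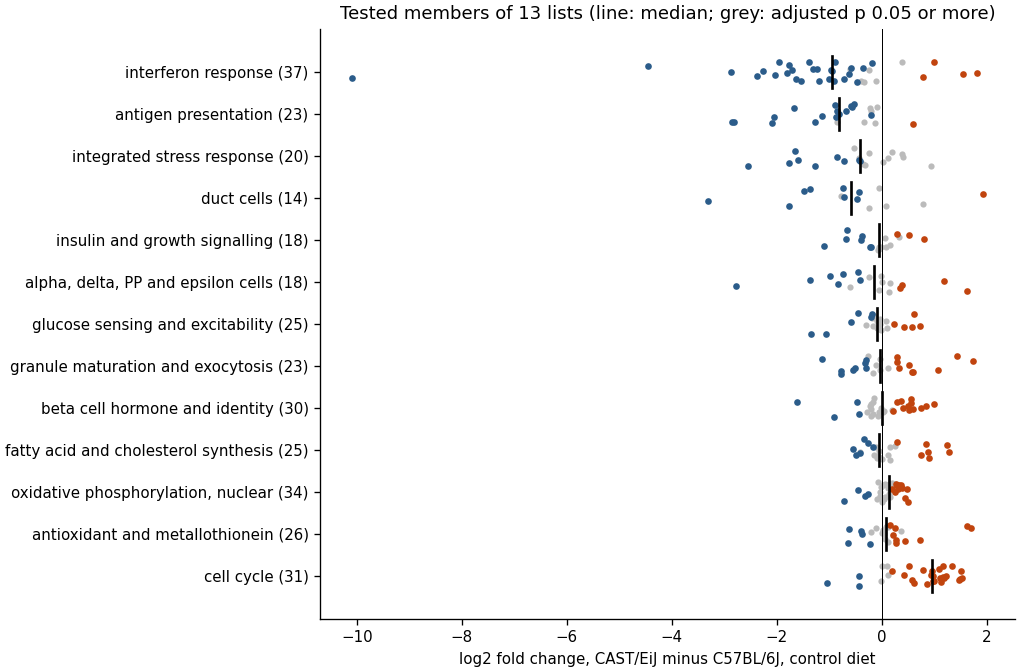
Points are the tested members of 13 gene lists (number in brackets) at their log2 fold change, CAST/EiJ minus C57BL/6J; orange and blue members passed an adjusted p of 0.05, grey ones did not, and black lines are list medians. The interferon and antigen presentation lists lie mostly left of 0 (medians -0.95 and -0.82) and the cell cycle list mostly right (0.96), while the endocrine lists spread to both sides.

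Markers of other cell types moved in both directions. The amylase copies went in opposite directions: Amy2a3 had 5615 to 109208 CPM (median 16945) in the C57BL/6J libraries and 0.0213 to 16.7 CPM (median 1.59) in the CAST/EiJ libraries, and Amy2b had 6.85 to 130.5 CPM (median 18.3) in the C57BL/6J libraries and 130.5 to 162207 CPM (median 7696) in the CAST/EiJ libraries. These amylase genes share 100% and 60.4% of their words with other genes, and the summed acinar list overlapped between strains, so both values are uncertain. Cela3a and Prss1, digestive proteases with close paralogs, rose by 11.28 and 8.90, and each spread widely within CAST/EiJ. They share 45.8% and 69.3% of their words. Spink1, which shares 0% of its words, fell by 3.02, with overlap. Of the 30 acinar genes, 4 rose and 1 fell (median log2 fold change -0.94). Without CAST/EiJ female 4, 9 fell, and 24 fell with the acinar level, computed from this same list, as a covariate. In each of these lists the counts stand beside 23.1% higher and 25.4% lower of all genes. Of 14 duct genes, 8 fell and 1 rose, with 2 rises without C57BL/6J female 3, CAST/EiJ female 2 or CAST/EiJ female 3, and 2 without the term for runs of sample numbers or with the acinar level as a covariate. Prom1, the epithelial surface protein CD133, had 87.6 to 111.5 CPM (median 92.0) in the C57BL/6J libraries and 7.74 to 11.4 CPM (median 9.71) in the CAST/EiJ libraries (log2 fold change -3.31 ± 0.10 (SE), adjusted p = 8.88e-12). Cldn4, a tight junction protein, fell by 1.77, while Spp1, osteopontin, rose by 1.94. Among 18 macrophage genes 4 rose and 3 fell, with a median log2 fold change of 0.00. Adgre1, the F4/80 antigen, and Itgax, CD11c, fell by 1.88 and 1.54 without overlap. Lyz1 rose by 6.02 without overlap, at a low mean log2 CPM of 0.15 and with 34.2% of its words shared. Fcer1g and Cd14 rose by 0.53 and 0.51, with overlap. Of 14 endothelial genes, 4 rose and 1 fell, and of 18 stellate cell and fibroblast genes, 6 rose and 2 fell; the rises and falls of the endothelial and macrophage lists were near or under the shares of all genes. Thy1, a fibroblast surface protein, rose by 1.93, and Rgs5, a pericyte gene, fell by 1.22, both without overlap. Pparg, the fat cell regulator, fell by 1.90, without overlap.

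**Figure D4:**
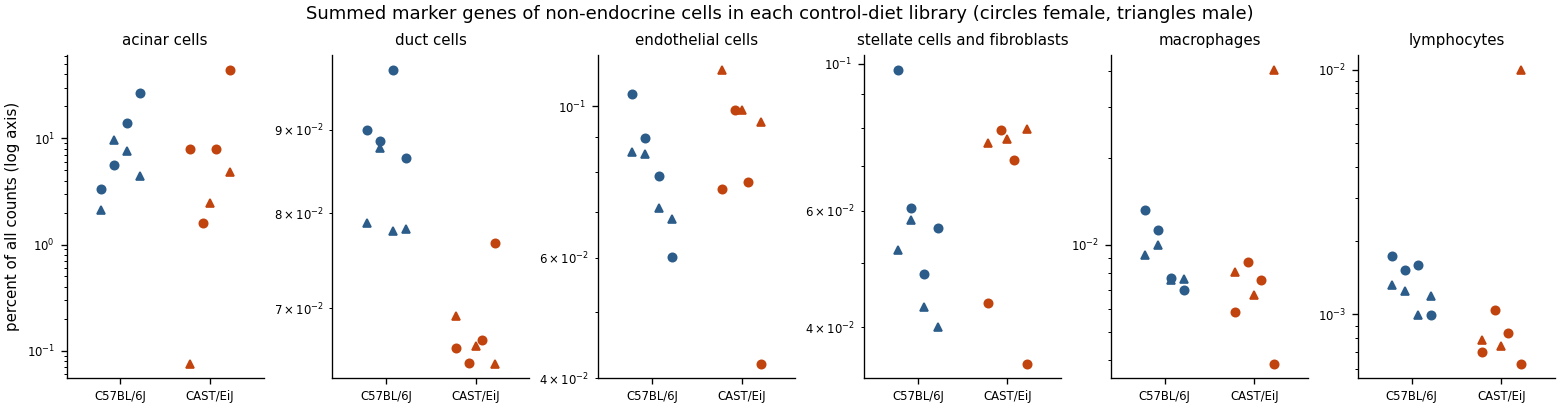
Points are single control-diet libraries (circles female, triangles male), and the y axis is the percent of all counts in the summed marker genes of 6 non-endocrine cell types, on log axes. Acinar shares span 0.0755 to 44.4% among CAST/EiJ libraries and 2.11 to 26.6% among C57BL/6J libraries, and CAST/EiJ male 3 is the highest library for macrophages and lymphocytes.

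Immediate early genes, which respond within minutes to handling, rose in 8 of 18 cases and fell in 1, beside 23.1% and 25.4% of all genes. Fos had 132.7 to 637.5 CPM (median 175.2) in the C57BL/6J libraries and 210.8 to 1068 CPM (median 492.0) in the CAST/EiJ libraries (adjusted p = 0.0254), with overlap. This list depended on single libraries: the rises numbered 1 to 10 as each library was left out, with 1 without CAST/EiJ male 2, 3 without C57BL/6J female 4 or male 3, 4 without C57BL/6J female 1 or male 4 or CAST/EiJ female 3, 5 with DESeq2, and 0 when all 45 samples were fitted together. The Fos call was lost without CAST/EiJ male 2 (adjusted p = 0.138), C57BL/6J female 4 (0.0594) or C57BL/6J male 3 (0.0567). Of 18 clock genes 6 fell, beside 25.4% of all genes, and 4 to 6 as each library was left out; Cry2, a repressor of the clock, fell by 1.02.

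No gene was called for a strain difference that depended on sex. With 3 or 4 libraries in each group of strain and sex, smaller differences between the sexes could be missed. In females alone 6826 genes (36.1%) were called and in males alone 6311 (33.4%). The strain by sex interaction passed for 0 genes in edgeR; 1344 passed at an unadjusted p under 0.05 (7.11%), and DESeq2 called 56. Xist, the RNA that silences an X chromosome, differed between the strains in males. In females it had 728.8 to 1494 CPM in C57BL/6J against 953.8 to 1415 CPM in CAST/EiJ, with a log2 fold change of 0.13. In males it had 0.210, 0.0963, 0.222 and 0.489 CPM in C57BL/6J and 1.67, 2.27 and 4.85 CPM in CAST/EiJ. The males of the strains did not overlap, and all stayed far below the females.

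A total of 23 genes were near absent in CAST/EiJ, with under 0.1 CPM in all its libraries and at least 1 CPM in all of C57BL/6J, and 26 genes showed the reverse. The counts depend on the limits: with under 0.05 and at least 2 CPM they were 10 and 7, and with under 0.2 and at least 0.5 CPM, 74 and 79. Of the 23, 15 are protein coding, and 11 share at least 50% of their words with other genes. They include Fam213b, Iigp1 and Olfm4. Of the 26, 12 are protein coding and 15 share as much; Tspan10, the glutamate transporter Slc1a7, the hydroxyproline dehydrogenase Prodh2 and the BK channel subunit Kcnmb3 are among them.

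Most strain differences were also called in the separate samples on the high-fat diet. Of those libraries, 3 stood apart: in CAST/EiJ high-fat female 1, all 23 genes near absent on the control diet reached 0.1 CPM, and in females 2 and 4, 15 did, against 0 to 3 in the other 5 CAST/EiJ high-fat libraries. Their sums were 11.9, 4.43 and 5.03 CPM in these 3 libraries and at most 0.817 CPM in the other 5. On that diet, 10807 of 18824 genes (57.4%) were called, 27.4% higher and 30% lower in CAST/EiJ. Of the 9163 genes called on the control diet, 9037 were tested there; 8990 had the same sign (99.5%), 8141 were also called in that direction (90.1%), and 0 were called in the opposite one. Without the 3 libraries, 8795 genes were called; of 9147 control calls tested, 9019 had the same sign (98.6%), 7100 were called in that direction (77.6%) and 1 in the opposite one. No gene had a strain by diet interaction in edgeR; 855 did at an unadjusted p under 0.05 (4.32%), and DESeq2 called 14. In the interferon list 32 genes fell (median log2 fold change -1.28). In the cell cycle list 13 genes rose and 4 fell (median 0.36), against 24 and 3 on the control diet (median 0.96). As the strain by diet interaction was called for 0 genes of any kind, it cannot tell whether this list differed between the diets.

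**Figure D5:**
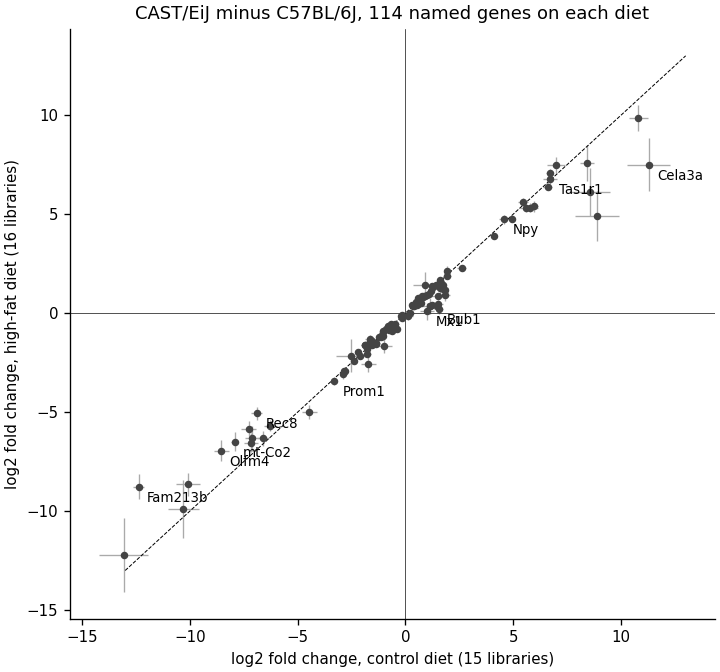
Points are 114 named genes with the log2 fold change, CAST/EiJ minus C57BL/6J, on the control diet (x axis, 15 libraries) and on the high-fat diet (y axis, 16 other libraries); bars are SE and the dashed line is equality. In 113 of the 114 the sign is the same, and Fam213b, Rec8 and Olfm4 lie nearer to 0 on the high-fat diet. On that diet 3 CAST/EiJ libraries held low counts of genes near absent in the control-diet CAST/EiJ libraries. Fam213b and Olfm4 are among those genes and Rec8 is not. The part of these 3 libraries in the shift was not tested.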

How the data were processed

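The authors deposited expected counts per gene, not normalized, in 1 table, of which 80.6% of values were whole within 1e-06; they were rounded before testing. The submitters' processing notes name GRCm38 and DESeq2; the aligner, the counting tool, its use of strand and the sequence used for CAST/EiJ reads are not stated in the sources used. The 22904 genes were matched by identifier to GENCODE release 21 (22763 matched). With edgeR 4.0.16 in R 4.3.3, genes were kept by filterByExpr (minimum count 10), scaled by TMM, and fitted over the 15 samples with 4 strain and sex groups and a term for 3 runs of consecutive sample IDs, which called 0 genes by itself. The strain contrast is the mean over the sexes, and p-values were adjusted over all 18906 genes. SE is the absolute log2 fold change over the square root of F. Alternatives used DESeq2 1.42.0 and other settings named with their effect.

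Named genes are the 10 protein-coding genes with the largest called rise and the 10 with the largest fall, of 2-fold or more, without overlap and with log2 CPM averaging at least 1, leaving out predicted genes and those sharing 50% of their 31-base words; 5 of each with a mean of at least 100 CPM; up to 3 called members a list and direction; and a set of islet and strain-variant genes, 1 of which is not reported here. H2-Ea-ps, Ifih1, Rsad2, Oas3, Irgm1, Mki67, Top2a, Ccnb2 and Amy2a3 were named after their values were seen, as were the near-absent genes Slc1a7, Prodh2 and Kcnmb3 and the list member Ccnd2. The members and the 33 gene lists were chosen with earlier results of these data known. Of 640 list entries, 622 were in the table; H2-Ea was not. Labels name no animal per sample, so the p-values speak of the spread among samples, which may be technical. In simulated counts with these library sizes (18607 genes), 67 genes were changed 1.5-fold, 67 were changed 2-fold and 66 were changed 4-fold. Of these, 39.4%, 79.7% and 93.8% were recovered. Far fewer genes were changed than were called in the data, so these shares do not carry over to the data. The floor of 3 counts covers counting error only.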

Additional observations from a re-analysis of the deposited data

Results flagged for a closer look

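In a group of 4 libraries, a highest or lowest library whose gap to its nearest neighbour takes over 0.829 of the group's range was marked as standing apart. Chance marks about 1 in 20 groups of independent values with a normal distribution, and 28 of the 351 groups examined were marked. The levels were CPM without a log scale, some marked groups held 0 in all but 1 library, and the same libraries recur across groups. The 28 therefore cannot be set against that rate. CAST/EiJ female 4 stood apart most often, and it also held the most acinar RNA: 44.4% of counts, with 8% in the next female. In that library Cela3a was at 3865 CPM, Amy2b at 162207 CPM, Amy2a3 at 11.1 CPM, Nupr1 at 438.6 CPM, Herpud1 at 320.1 CPM, Rec8 at 0.421 CPM and Ifih1 at 6.97 CPM, each the highest of the 4 females, and Eno2 at 110.1 CPM was the lowest. Its C57BL/6J counterpart in acinar share, female 4, was lowest in Nell1 (167.5 CPM), Kcnk16 (61.6 CPM), Gpd2 (77.0 CPM) and Ucn3 (252.5 CPM). C57BL/6J female 1 was highest in Pdx1 (181.8 CPM), Rgs5 (182.7 CPM), Top2a (6.07 CPM) and H2-Ea-ps (0.0560 CPM), female 2 lowest in Rsad2 (9.17 CPM), and female 3 highest in Nnt (35.6 CPM) and Mx2 (1.65 CPM). C57BL/6J male 1 was lowest in Magel2 (0.0350 CPM) and male 2 highest in Prss1 (0.308 CPM). CAST/EiJ female 1 was highest in Mki67 (14.5 CPM) and Iigp1 (0.0271 CPM), female 2 lowest in Ccnd1 (56.5 CPM) and highest in Ddx3y (0.0127 CPM), and female 3 highest in Kcnk16 (38 CPM) and Hamp2 (0.0109 CPM).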

How the results depend on the processing

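No paired analysis was possible because the labels give no replicate numbers. Leaving out each library in turn gave 8323 to 9433 called genes, 4111 to 4796 higher and 4106 to 4748 lower, 3265 to 3477 at 2-fold, 5597 to 7092 in females, 5143 to 6745 in males and 0 to 2 for the strain by sex interaction. Tested against a 1.5-fold change, 3302 genes passed, 1413 higher and 1889 lower. Among genes whose log2 CPM averaged at least 1, which leaves fewer genes to test, 3164 were lower and 1251 called at 2-fold. The strain by sex interaction called 56 genes with DESeq2, 1 with no filter on low counts and 3 with all 45 samples; the cause was not tested. The strain by diet interaction called 14 with DESeq2. The genes near absent in CAST/EiJ and in C57BL/6J numbered 10 and 7 under the stricter limits and 74 and 79 under the wider ones. Without the 3 CAST/EiJ high-fat libraries that stood apart, an alternative added after the data were seen, 8795 genes were called on that diet. For 114 of the named genes, 3085 of 3180 alternative values kept direction and call. Of the other values, 74 lost the call, 2 gained it and 0 reversed. The remaining 19, untested values within a run of sample numbers, moved by more than the spread between samples.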
